A study of Mus musculus with 12 samples.

Results

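IL-2 withdrawal was examined here in resting T blasts (TB), which are CD4 T cells that were activated once, expanded in IL-2 and then left without a second stimulus. Across all genes, 3 RNA-Seq libraries of cells kept in IL-2 (TB IL-2) were compared with 3 libraries of cells from which IL-2 was removed for 16 h (TB IL-2nil). These are 6 of the 12 libraries of the series. Of the 24439 genes listed in each library, 12442 were above 1 TPM (a level corrected for transcript length and scaled to the same total in every library) in at least 1 of the 12 libraries and were tested. The TPM values given below were then scaled to a common 75th percentile. Their sums over the genes tested thus differ, from 715800 to 1277000 in the 6 TB libraries. The question behind the comparison was which transcripts of a previously activated T cell depend on continued IL-2 signaling.

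All groups came from the spleens of C42 mice, a C57BL/6 line that carries a fragment of the human IL3 and CSF2 locus as a transgene. The CD4 T cells were selected with beads, activated for 40 h by 2 µg/ml of the lectin concanavalin A (ConA), and then grown in 50 U/ml IL-2. For the time in IL-2 before the 16 h of withdrawal, the labels give 2 days and the methods a shorter period. The remaining 6 libraries, TB+ IL-2 and TB+ IL-2nil with 3 each, are the same 2 kinds of cells after stimulation with PMA and a calcium ionophore (PMA/I). This stimulation was short and followed the 16 h with or without IL-2. Concanavalin A acts on all T cells, so the cultures hold many clones and were not polarized to a helper lineage. Dead cells were removed where required according to the methods, and which libraries this concerns is not given in the sources used here. Nothing in the labels says that replicates came from separate animals, so P-values measure only the spread between these samples, which may be technical. The data are from bulk RNA, in which fewer cells of a type and less RNA per cell cannot be told apart.

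The libraries labelled TB IL-2nil replicate 3 and TB+ IL-2 replicate 3 go against their labels. Il2 encodes IL-2 itself and is switched on by PMA/I. It was at 1368 FPKM (fragments scaled to transcript length and library size, the deposited unit) in the library labelled TB IL-2nil replicate 3 and at 0.290 FPKM in that labelled TB+ IL-2 replicate 3. It spanned 0 to 1.18 FPKM in the remaining TB libraries and 1095 to 2374 FPKM in the remaining TB+ libraries. In the study's own list of differentially expressed genes, which gives a value for each library, 10 of 12 columns match the library that carries the same label, and these 2 columns hold each other's. The match was made after quantile normalization, which is not the scaling used for the values below. Both libraries were therefore placed in each other's group for all values below, so that TB IL-2nil replicate 3 means the library labelled TB+ IL-2 replicate 3. This placement was chosen on measured values and is not a result. Results are also given without both libraries and by label. The deposited values contain no read counts, so no counting interval is given. The relative depth of the 6 TB libraries, read from the steps between low values, spanned 3.01-fold (0.409 to 1.23), and the shallowest was TB IL-2nil replicate 2.

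IL-2 signals through a receptor of alpha, beta and gamma chains (Il2ra, Il2rb and Il2rg) to the kinases JAK1 and JAK3, which phosphorylate STAT5. STAT5 then switches on feedback inhibitors, survival genes and effector genes, while PI3K and mTOR signaling downstream of the same receptor drive growth, metabolism and the cell cycle and keep FOXO factors out of the nucleus. T cells that lose the cytokine stop dividing, shrink and either die or return to a quiescent state in which survival depends more on IL-7.

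Promoter sequences are shown for the gene groups whose members fell or rose together and whose promoters held a known motif, so that the motif can be read in its context. They are from RefSeq (GRCm38.p6), written 5′ to 3′ along the gene's strand, with the motif in capitals and 40 bases on either side where the 250 bases before the transcription start allow it. E2F motifs, bound by factors that switch on S phase genes, are shown for Pola1 (chrX:93632230-93632316, minus strand) and Rrm1 (chr7:102441588-102441674, plus strand), which encode a DNA polymerase subunit and a ribonucleotide reductase subunit. CHR motifs, the cell cycle homology region of mitotic genes, are shown for Smc2 (chr4:52439036-52439121, plus strand), a condensin subunit, and Kif15 (chr9:122951022-122951080, plus strand), a spindle kinesin. CRE-like motifs, of the kind used by ATF4 in the amino acid response, are shown for Aars (chr8:111033690-111033777, plus strand), an alanyl-tRNA synthetase, and Pycr1 (chr11:120643804-120643891, minus strand), an enzyme of proline synthesis. A FOXO motif is shown for the antiproliferative gene Btg1 (chr10:96616757-96616843, plus strand). At most 2 promoters per list were taken, from members that passed the test given below and held the motif before the start. Those with the lowest adjusted P were used. For the FOXO motif Btg1 alone is shown, and 5 of 36 promoters of its list held the motif. The motifs lie 114 bases before the start in Pola1 (the one nearer to the start of 2 shown), 60 in Rrm1, 139 in Smc2, 13 in Kif15, 104 in Aars, 95 in Pycr1 and 197 in Btg1.
Pola1: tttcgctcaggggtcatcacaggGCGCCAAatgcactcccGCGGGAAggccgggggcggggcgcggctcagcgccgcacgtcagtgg
Rrm1: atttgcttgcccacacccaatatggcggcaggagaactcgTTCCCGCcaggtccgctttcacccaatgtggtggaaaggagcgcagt
Smc2: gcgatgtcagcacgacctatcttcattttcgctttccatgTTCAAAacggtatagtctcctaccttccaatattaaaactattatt
Kif15: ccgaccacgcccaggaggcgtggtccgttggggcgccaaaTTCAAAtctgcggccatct
Aars: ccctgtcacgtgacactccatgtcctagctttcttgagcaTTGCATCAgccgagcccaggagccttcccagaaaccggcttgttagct
Pycr1: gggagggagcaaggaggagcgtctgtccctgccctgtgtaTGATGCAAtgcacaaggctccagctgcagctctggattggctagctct
Btg1: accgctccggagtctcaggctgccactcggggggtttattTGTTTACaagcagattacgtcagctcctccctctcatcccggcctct

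A promoter window of 300 bases (250 before and 50 after the start) was matched by symbol to 9530 of the 12442 genes tested, to 424 of the 583 genes that fell over 3-fold and to 258 of the 340 that rose over 3-fold. Every motif was searched on both strands. The E2F motif (the letters TTGGCGC, the letters TTGCCGC, the letters TTCGCGC or the letters TTCCCGC) was in 17.2% of all these promoters, in 32.8% of those of genes that fell and in 10.9% of those of genes that rose, and in 24 of 42 promoters (57.1%) of the DNA replication list. It was also in 10 of 36 of the quiescence list (27.8%), whose members mostly rose. The CHR motif (TTTGAA) was in 12.1% of all promoters, in 17.9% of those of genes that fell, in 9.69% of those of genes that rose and in 36 of 54 promoters (66.7%) of the mitosis list. CCAAT, the NF-Y box, was in 39.0% of all promoters, in 50.7% of those of genes that fell and in 38% of those of genes that rose. It was in 38 of 54 of the mitosis list (70.4%), in 21 of 26 of the sterol and fatty acid list (80.8%) and in 20 of 27 of the chaperones (74.1%). It was also in 27 of 42 of the DNA replication list (64.3%), 17 of 29 of the amino acid list (58.6%) and 21 of 36 of the quiescence list (58.3%). The CRE-like motif (TGATGNAA) was in 2.31% of all promoters, in 3.3% of those of genes that fell, in 2.71% of those of genes that rose and in 10 of 29 of the amino acid list (34.5%). The FOXO motif (TGTTTAC) was in 2.59% of all promoters, in 1.42% of those of genes that fell, in 8.91% of those of genes that rose, and in 5 of 36 of the quiescence list (13.9%). The STAT motif (TTCNNNGAA, which can contain a CHR motif) was in 7.08% of all promoters, in 8.25% of those of genes that fell, in 6.59% of those of genes that rose and in 2 of 12 of the STAT5-induced list (16.7%). This share was not particular to that list. It was 3 of 8 for GIMAP genes (37.5%), 4 of 12 for granule genes (33.3%), 5 of 20 for other cytokine receptors (25%) and 4 of 24 for cytokines (16.7%). It was lower in others, such as the mitosis list (2 of 54, 3.7%). The E-box (CACGTG) was in 10.4% of all promoters, in 12.7% of those of genes that fell and in 10.1% of those of genes that rose. It was in 13 of 53 of the ribosome biogenesis list (24.5%) and in 8 of 29 of the autophagy and lysosome list (27.6%). The ETS motif (CCGGAAG) was in 19.2% of all promoters, in 14.4% of those of genes that fell, in 8.53% of those of genes that rose, in 13 of 42 of the DNA replication list (31.0%) and in 19 of 53 of the ribosome biogenesis list (35.8%). The shares of the AP-1 motif (TGACTCA or TGAGTCA) were 3.47% of all promoters, 4.25% for genes that fell and 4.26% for genes that rose, and those of the RUNX motif (TGTGGTT) were 3.86%, 3.07% and 4.65%. A match is a description of letters and not a bound site.

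**Figure D1:**
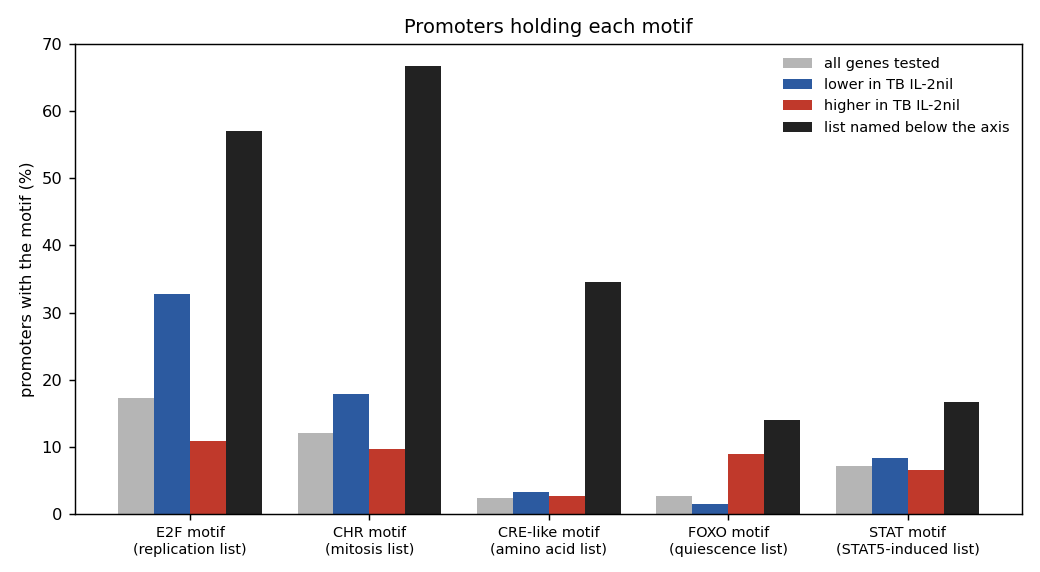
Share of 300-base promoters (y axis, percent) that held each motif (x axis), for all genes tested, genes lower and genes higher over 3-fold in TB IL-2nil, and the gene list named below each motif. The E2F motif is in 57.1% of replication promoters against 17.2% of all, and the CHR motif in 66.7% of mitosis promoters against 12.1% of all.

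Withdrawal of IL-2 changed a large part of the transcriptome, and more genes fell than rose by a large factor. On the log2(TPM + 1) scale, 583 genes (4.69% of those tested) were more than 3-fold lower in TB IL-2nil at an adjusted P under 0.05 (limma, with Benjamini-Hochberg adjustment over all genes tested), and 340 (2.73%) were more than 3-fold higher. At the adjusted P alone, 2156 genes (17.3%) fell and 2773 (22.3%) rose, and in what follows a gene is said to have risen or fallen if it passed this test. The 3 libraries of each group did not overlap for 2836 genes (22.8%) that were lower and for 3781 (30.4%) that were higher. The median difference over all genes was 0.13, so list medians are to be read against that value. List counts are likewise to be read against the 17.3% of all genes that fell and the 22.3% that rose. For lists with 0 genes risen or fallen, the count at an unadjusted P under 0.05 in limma was also 0 unless another is given. This holds for the fit reported and for that without both moved libraries, and was not counted for other normalizations. The genes just above the limit of 3-fold were Zfp169 and Eva1b (1.585 each), and those just below were Cchcr1 (-1.585) and Tubb5 (-1.584). Without both moved libraries, 571 of the 583 and 330 of the 340 genes still passed the adjusted P. By label, 7 genes fell and 5 rose over 3-fold. Libraries correlated at 0.939 to 0.962 within TB IL-2, at 0.926 to 0.956 within TB IL-2nil and at 0.835 to 0.903 between the groups (Pearson, across genes).

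**Figure D2:**
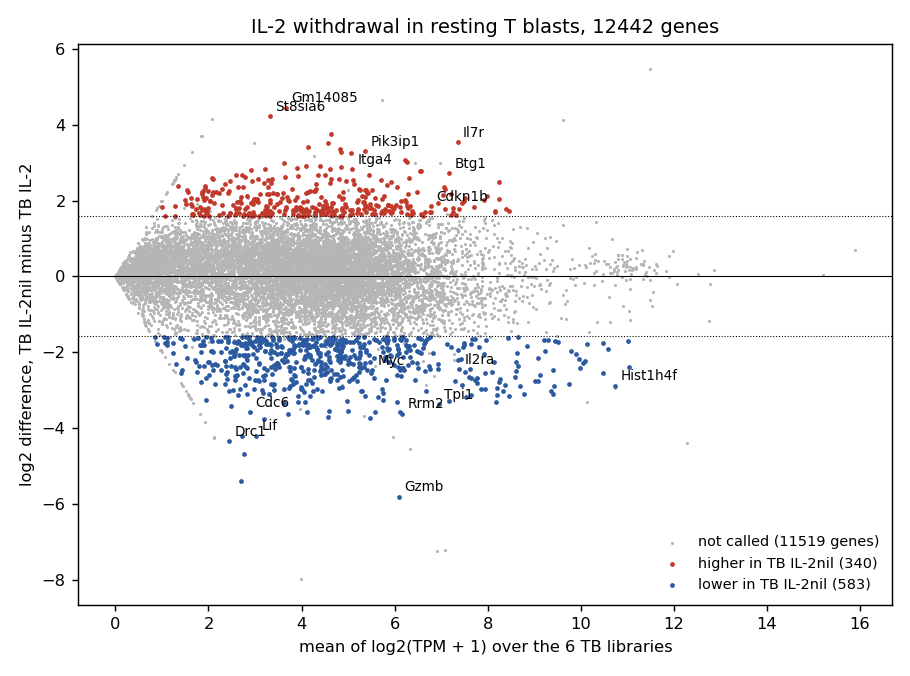
Log2 difference of TB IL-2nil minus TB IL-2 (y axis) against the mean log2(TPM + 1) of the 6 TB libraries (x axis) for 12442 genes. Red points are the 340 genes more than 3-fold higher after withdrawal and blue points the 583 more than 3-fold lower at an adjusted P under 0.05, with dotted lines at 3-fold and named genes labelled.

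The genes closest to the receptor moved in opposite directions. Il2ra was at 339.3, 759.1 and 228.9 TPM in TB IL-2 replicates 1, 2 and 3 and at 58.57, 80.96 and 74.39 TPM in TB IL-2nil, the order in which all library values are given. It fell by 2.45 on the log2 scale (SE 0.348, adjusted P = 0.000476). Il2rb, the chain shared with the IL-15 receptor, fell by 1.48 (SE 0.418, adjusted P = 0.0163), a call that was lost with the 6 TB libraries alone (adjusted P = 0.0666). The common gamma chain Il2rg stayed at 345.8 to 401.8 TPM with IL-2 and 361.1 to 379.0 TPM without it, groups that overlapped (difference -0.01, adjusted P = 0.967). Jak1 was at 156.5, 125.5 and 154.8 TPM with IL-2 and at 423.6, 431.4 and 368.3 TPM without it, a rise of 1.48 (SE 0.204, adjusted P = 4e-04). Stat5b rose by 0.95 (SE 0.191, adjusted P = 0.00304), while the differences of Stat5a (0.33, adjusted P = 0.511) and Jak3 (-0.26, adjusted P = 0.267) did not pass the test. Of the 7 receptor and kinase genes, 2 thus rose and 2 fell.

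Feedback and target genes of STAT5 fell or did not pass the test. Of 15 tested, 9 fell, 7 of them over 3-fold, and 0 rose, with a median of -1.46 (9 fell and 0 rose without both moved libraries). Cish, an SH2 protein that dampens STAT5 signaling, lies on chromosome 9 from 107198357 to 107205115 (mm9, GENCODE M1). It was at 157.3, 197.4 and 145.0 TPM in TB IL-2 and at 15.48, 5.108 and 25.06 TPM in TB IL-2nil, 12.05-fold lower (log2 difference -3.59, SE 0.425, adjusted P = 0.00018). Socs2, a related inhibitor, was at 159.2, 187.1 and 99.75 TPM and at 28.86, 15.52 and 19.74 TPM (log2 difference -2.74, SE 0.369, adjusted P = 0.000358). In both genes every library with IL-2 stood above every library without it. Socs1, the inhibitor that acts on JAK kinases directly, fell by 2.03 (SE 0.436, adjusted P = 0.00434) and Socs3 by 1.02 (SE 0.264, adjusted P = 0.0109). Lif, a cytokine of the IL-6 family, went from 24.23, 47.45 and 34.12 TPM to 0.7695, 0.8715 and 1.079 TPM (log2 difference -4.20, SE 0.604, adjusted P = 0.000497).

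Few genes of effector products passed the test, and those that fell did so by very different amounts. Of 13 granule and killing genes tested, 2 fell (15.4%, against 17.3% of all genes) and 1 rose (7.69%, against 22.3%), with a median of 0.21. Gzmb, the protease of cytotoxic granules on chromosome 14 from 56877693 to 56881097 (mm9), was at 388.9, 581.4 and 594.0 TPM in TB IL-2 and at 19.00, 1.946 and 11.96 TPM in TB IL-2nil. It was 56.15-fold lower (log2 difference -5.81, SE 0.564, adjusted P = 7.59e-05), the largest fall among named genes. Gzmc fell by 2.51 (SE 0.299, adjusted P = 0.000185), and Gzmk, at 3.11 TPM or less in every TB library, rose by 1.0 (SE 0.304, adjusted P = 0.0223) with overlapping groups and not without both moved libraries (adjusted P = 0.0724). Gzmk was above 1 TPM in TB IL-2nil libraries only, so it was tested only through the group in which it was higher. Of 28 cytokine genes, 7 fell (25%, against 17.3% of all genes), 4 of them over 3-fold, and 3 rose (10.7%, against 22.3%), with a median of -0.20. Tnf was at 30.74, 80.61 and 59.65 TPM with IL-2 and at 3.994, 4.779 and 9.346 TPM without it (log2 difference -3.01, SE 0.525, adjusted P = 0.00144), and Lta, its neighbour in the lymphotoxin family, fell by 2.13 (SE 0.35, adjusted P = 0.00102). Il16 rose by 1.72 (SE 0.395, adjusted P = 0.00602). Of 22 chemokine and chemokine receptor genes, 3 rose (13.6%) and 1 fell (4.55%), or 7 and 2 with the replicate number as a block. Cxcl10, a ligand of CXCR3, fell by 1.26 (SE 0.238, adjusted P = 0.00221) from 1.553 to 3.047 TPM down to 0 to 0.5535 TPM, a range in which 1 library is listed at 0.

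Outside these lists, the 12 largest falls included genes of chromosome structure, lipid metabolism and cell surface proteins. Drc1, a component of motile cilia, had the smallest adjusted P of the named genes. It was at 22.60, 26.90 and 21.81 TPM with IL-2 and at 0.2778, 0 and 0.3931 TPM without it, listed at 0 in TB IL-2nil replicate 2 (log2 difference -4.35, SE 0.163, adjusted P = 2.39e-07). Syce2, a protein of the meiotic synaptonemal complex, was at 38.13, 28.72 and 31.65 TPM and at 2.262, 0.6386 and 1.816 TPM (log2 difference -3.77, SE 0.244, adjusted P = 1.35e-05). Lrrc32, which anchors latent TGF-beta on the surface of regulatory T cells, fell by 3.63 (SE 0.466, adjusted P = 0.000275), and Ppa1, a pyrophosphatase, fell by 3.70 (SE 0.328, adjusted P = 5.37e-05). Of 8 regulatory T cell markers tested, Lrrc32 among them, 2 rose and 2 fell (25% each, against 22.3% and 17.3% of all genes), with a median of -0.15. Cdca7, a cofactor of a chromatin remodeler, fell by 3.57 (SE 0.315, adjusted P = 5.28e-05). Among the largest rises, Gm14085, a gene model on chromosome 2 from 122310677 to 122353776 (mm9), went from 5.995, 0.5904 and 0.7728 TPM to 50.09, 74.99 and 51.53 TPM (log2 difference 4.45, SE 0.482, adjusted P = 0.000122). St8sia6, a sialyltransferase, rose by 4.23 (SE 0.635, adjusted P = 0.000625), with TB IL-2nil values from 19.97 to 77.53 TPM. The other rises of this rank, in Rflnb, Tcp11l2, Bambi-ps1, Tdrp, Arl5c, A630023P12Rik and Fam46c, spanned 3.02 to 3.76. In TB IL-2 replicate 1 several of these genes stood above the other two TB IL-2 libraries, for example Tdrp at 24.90 TPM against 2.823 and 6.003 TPM.

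Genes of naive T cells rose, and so did part of the receptors for other cytokines. Il7r, the receptor chain through which IL-7 sustains resting T cells, was at 96.09, 25.21 and 42.35 TPM with IL-2 and at 835.5, 562.2 and 367.6 TPM without it, 11.63-fold higher (log2 difference 3.54, SE 0.488, adjusted P = 0.000406). Of 24 cytokine receptor genes other than those of IL-2, 7 rose (29.2%, against 22.3% of all genes), 1 fell and 16 did not pass the test (median 0.64). With the replicate number as a block 11 rose. Il6st, the signaling chain of IL-6, was at 19.76, 19.67 and 15.33 TPM and at 60.51, 61.02 and 55.54 TPM (log2 difference 1.65, SE 0.29, adjusted P = 0.00151). Tgfbr2 rose by 1.35 (SE 0.217, adjusted P = 0.000914), and Il12rb1, needed for the response to IL-12, fell by 1.28 (SE 0.28, adjusted P = 0.00465). Of 25 genes of naive T cells and lymph node homing, 19 rose, 11 of them over 3-fold, and 2 fell, with a median of 1.42 (19 rose and 1 fell without both moved libraries). The study names some of these genes from the same libraries, so that the direction of the list is not independent evidence. Actn1, an actin cross-linker, was at 26.04, 21.31 and 27.56 TPM and at 181.7, 257.3 and 209.6 TPM (log2 difference 3.06, SE 0.237, adjusted P = 2.75e-05). Sidt1 rose by 2.43 (SE 0.286, adjusted P = 0.000173) and the transcription factor Foxp1 by 1.43 (SE 0.176, adjusted P = 0.000218). The factor Klf2 and its target S1pr1, the receptor for egress from lymph nodes, rose by 1.16 (SE 0.304, adjusted P = 0.0114) and 1.42 (SE 0.391, adjusted P = 0.0147). Igfbp4 went against the group and fell by 2.50 (SE 0.58, adjusted P = 0.0063).

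Surface receptors of costimulation were split. Of 26 tested, 11 rose and 3 fell (median 0.75). Cd27, a costimulator of resting T cells, was at 38.46, 17.39 and 44.39 TPM in TB IL-2 and at 148.9, 204.4 and 234.6 TPM in TB IL-2nil (log2 difference 2.59, SE 0.333, adjusted P = 0.000275). Slamf6 rose by 2.28 (SE 0.254, adjusted P = 0.000133) and Tnfrsf14 by 1.41 (SE 0.222, adjusted P = 0.00083). Tnfrsf4, the receptor OX40 of recently activated cells, was at 111.6, 138.9 and 73.89 TPM and at 38.72, 36.42 and 36.88 TPM, a fall of 1.46 on the log2 scale (SE 0.239, adjusted P = 0.000983). Ctla4, an inhibitory receptor, went from 11.77, 17.96 and 31.05 TPM to 38.55, 112.6 and 165.1 TPM and rose by 2.20 (SE 0.637, adjusted P = 0.0186), with a wide spread among the libraries without IL-2. Tnfrsf18, the receptor GITR, fell by 0.99 (SE 0.199, adjusted P = 0.00311). The libraries of each of these genes did not overlap between the groups.

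Genes that hold lymphocytes in quiescence rose as a group. Of 40 quiescence genes and PI3K brakes tested, 30 rose, 15 of them over 3-fold, and 1 fell, with a median of 1.30 (26 rose and 1 fell without both moved libraries). Btg1, whose promoter is shown above, was at 59.04, 39.75 and 70.13 TPM with IL-2 and at 327.8, 355.8 and 424.1 TPM without it, 6.592-fold higher (log2 difference 2.72, SE 0.227, adjusted P = 3.71e-05). Fbxo32, a ubiquitin ligase subunit known as a FOXO target, was at 3.681, 1.416 and 1.948 TPM and at 19.50, 18.92 and 14.21 TPM (log2 difference 2.51, SE 0.244, adjusted P = 7.59e-05). Sesn1, a sestrin that restrains mTOR, rose by 2.00 (SE 0.222, adjusted P = 0.000133). Pik3ip1, an inhibitor of PI3K, was at 20.41, 6.241 and 13.63 TPM and at 112.0, 121.4 and 155.4 TPM (log2 difference 3.30, SE 0.512, adjusted P = 0.000765). Txnip, which limits glucose uptake, rose by 2.04 (SE 0.589, adjusted P = 0.0182), but not without both moved libraries (adjusted P = 0.066). The difference of Foxo1 was 0.66 with overlapping groups (adjusted P = 0.103). Cdkn2c, a CDK inhibitor counted in this list, fell by 1.59 (SE 0.395, adjusted P = 0.009).

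Survival and death genes of the BCL-2 family moved both ways, with 8 of 21 higher (38.1%) and 5 lower (23.8%), against 22.3% and 17.3% of all genes. With rescaling of the totals alone 5 were higher and 3 lower. Bcl2, which blocks apoptosis, was at 205.3, 196.5 and 135.6 TPM with IL-2 and at 72.15, 27.74 and 42.27 TPM without it, a fall of 1.98 on the log2 scale (SE 0.379, adjusted P = 0.00235). Bcl2l1, which encodes BCL-XL, was at 41.15, 63.98 and 45.06 TPM and at 12.29, 12.58 and 16.97 TPM (log2 difference -1.76, SE 0.263, adjusted P = 0.000615). Of 7 death activators of the BH3-only class tested, a count that leaves out Bnip3, 3 rose and the differences of Bid, Bik, Bad and Pmaip1 did not pass the test. Bcl2l11, which encodes BIM, was at 38.17, 28.95 and 33.94 TPM with IL-2 and at 77.27, 140.0 and 124.3 TPM without it, a rise of 1.69 (SE 0.224, adjusted P = 0.00032). Bbc3, which encodes PUMA, rose by 1.65 (SE 0.413, adjusted P = 0.00943), and Bmf rose by 1.16 (SE 0.149, adjusted P = 0.000271) from under 0.4 TPM to between 1.665 and 2.059 TPM. Bmf was above 1 TPM in TB IL-2nil libraries only, so it too was tested only through the group in which it was higher. The furthest fall of the list was that of Bnip3, a mitochondrial protein induced by hypoxia, which was at 23.34, 37.96 and 87.68 TPM and at 7.711, 6.114 and 11.61 TPM (log2 difference -2.25, SE 0.501, adjusted P = 0.00515). Mcl1, a survival gene, did not follow Bcl2 and Bcl2l1 and rose by 0.66 (SE 0.136, adjusted P = 0.0035).

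**Figure D3:**
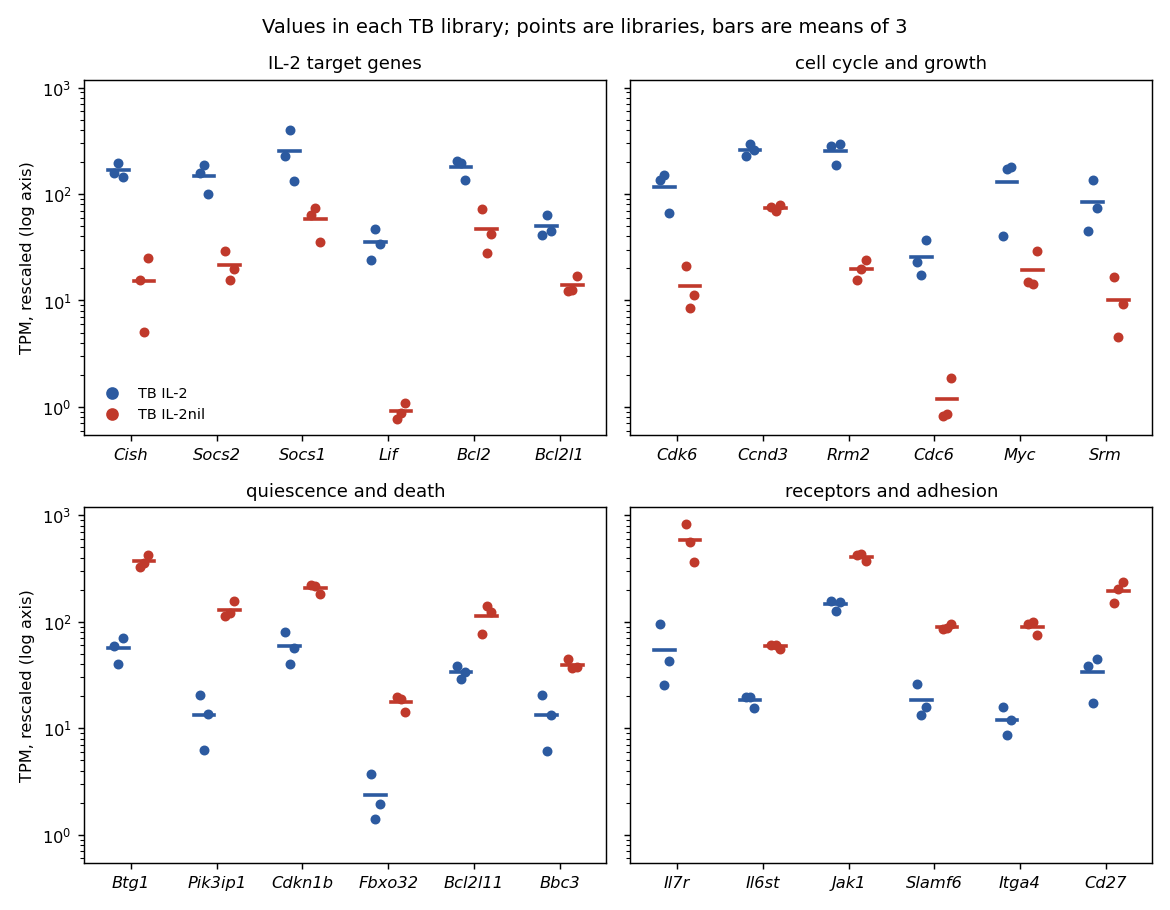
TPM values (log y axis) of 24 genes in each TB library, with blue points for TB IL-2, red points for TB IL-2nil and bars for the means of 3. In all 24 genes the 3 libraries with IL-2 do not overlap the 3 without it, which for some was a condition of being named. Over all genes tested, 22.8% were lower and 30.4% higher in TB IL-2nil without overlap.

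The machinery that drives cells from G1 into S phase fell. Of 16 G1 cyclins, CDKs and CDK inhibitors, 10 fell, 8 of them over 3-fold, and 1 rose (median -1.54; 8 fell and 1 rose without both moved libraries). Cdk6, the kinase partner of D cyclins, was at 134.6, 149.7 and 66.32 TPM with IL-2 and at 20.98, 8.488 and 11.28 TPM without it (log2 difference -3.02, SE 0.392, adjusted P = 0.000284). Cdk4 fell by 1.64 (SE 0.182, adjusted P = 0.000133), Ccne1 by 2.73 (SE 0.352, adjusted P = 0.000279) and Ccne2 by 2.63 (SE 0.312, adjusted P = 0.00018), the cyclins E being partners of CDK2. Among the D cyclins, Ccnd3 fell by 1.79 (SE 0.316, adjusted P = 0.00153), while Ccnd2 had a difference of -0.75 (adjusted P = 0.0834; 0.0457 with the replicate number as a block). The one riser was Cdkn1b, which encodes the CDK inhibitor p27. It was at 79.35, 39.88 and 57.22 TPM and at 222.1, 216.1 and 182.3 TPM, a rise of 1.85 (SE 0.382, adjusted P = 0.00355).

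In the E2F, RB and MYC network, 12 of 23 genes fell and 3 rose. Myc, on chromosome 15 from 61816946 to 61821929 (mm9), was at 40.20, 170.3 and 180.3 TPM in TB IL-2 and at 14.79, 14.38 and 29.22 TPM in TB IL-2nil (log2 difference -2.48, SE 0.482, adjusted P = 0.0025). The spread within TB IL-2 came from replicate 1, which was the lowest of the 3 but still above every TB IL-2nil library. Tfdp1, the dimer partner of E2F factors, fell by 2.25 (SE 0.175, adjusted P = 2.78e-05), the activator E2f3 by 1.60 (SE 0.148, adjusted P = 6.65e-05) and the repressor E2f7 fell by 2.97 (SE 0.356, adjusted P = 0.000195). Mxd4, which competes with MYC for its partner MAX, was at 29.46, 15.61 and 18.95 TPM and at 97.94, 140.3 and 139.3 TPM, a rise of 2.53 (SE 0.492, adjusted P = 0.00251).

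Genes of DNA replication had the highest share of members that fell among the lists. Of 51 tested, 49 fell, 41 of them over 3-fold, and 0 rose, with a median of -2.44 (48 fell and 0 rose without both moved libraries). Pola1 was at 52.13, 34.92 and 48.91 TPM with IL-2 and at 6.161, 4.745 and 5.422 TPM without it (log2 difference -2.83, SE 0.194, adjusted P = 1.74e-05). Rrm1 was at 163.0, 127.5 and 175.6 TPM and at 13.65, 18.39 and 21.13 TPM (log2 difference -3.07, SE 0.243, adjusted P = 2.82e-05). Its partner Rrm2 was at 281.9, 187.4 and 292.1 TPM and at 15.50, 19.66 and 23.78 TPM, 12.28-fold lower (log2 difference -3.62, SE 0.337, adjusted P = 6.65e-05). For each of these 3 genes the lowest library with IL-2 was several times above the highest without it. Cdc6, a loader of the replicative helicase, fell by 3.59 (SE 0.301, adjusted P = 3.83e-05), Uhrf1, which maintains DNA methylation at replication, by 3.74 (SE 0.425, adjusted P = 0.000146), and Pcna, the sliding clamp, by 2.53 (SE 0.194, adjusted P = 2.75e-05). The list took 0.668 ± 0.163% (SD, n = 3) of the FPKM outside short non-coding RNAs in TB IL-2 and 0.146 ± 0.00607% (SD, n = 3) in TB IL-2nil.

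Mitotic genes fell as well, with more spread among the libraries without IL-2. Of 64 tested, 45 fell, 42 of them over 3-fold, and 0 rose (1 at an unadjusted P under 0.05; median -1.99; 44 fell without both moved libraries, and 58 fell and 2 rose with the replicate number as a block). Mybl2, a factor of the complex that switches on mitotic genes, fell by 3.12 (SE 0.247, adjusted P = 2.82e-05), the ubiquitin enzyme Ube2s by 1.94 (SE 0.218, adjusted P = 0.000136) and the centromere protein Cenph by 2.99 (SE 0.347, adjusted P = 0.000165). Smc2 was at 97.60, 90.24 and 110.1 TPM and at 8.468, 24.91 and 23.25 TPM (log2 difference -2.46, SE 0.398, adjusted P = 0.000938), and Kif15 at 58.79, 54.40 and 74.26 TPM and at 3.649, 14.16 and 15.62 TPM (log2 difference -2.58, SE 0.487, adjusted P = 0.00221). TB IL-2nil replicate 1 was the lowest library for both. The same library was the lowest for Mki67, the proliferation marker Ki-67, which was at 283.6, 266.9 and 405.3 TPM and at 21.15, 132.5 and 145.6 TPM, and the difference of -2.05 did not pass the test (SE 0.827, adjusted P = 0.0692; 0.024 with the replicate number as a block). The mitosis list took 0.8259, 0.6848 and 0.9432% of the FPKM outside short non-coding RNAs with IL-2 and 0.1706, 0.3935 and 0.4305% without it.

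Replication-dependent histone genes, which are transcribed in S phase, were among the most abundant transcripts of the cells with IL-2. The libraries were made by depletion of ribosomal RNA. As a share of the FPKM outside short non-coding RNAs they took 8.351, 12.61 and 8.981% in TB IL-2 and 1.175, 2.737 and 2.874% in TB IL-2nil, a part of the total on which the share of every other gene depends. Of 64 tested, 51 fell, 48 of them over 3-fold, and 1 rose. The study names this group from the same libraries, so that its direction is not independent evidence. Hist2h4 was at 2624, 2719 and 1820 TPM and at 421.8, 543.6 and 477.2 TPM (log2 difference -2.29, SE 0.219, adjusted P = 6.91e-05). Several histone genes are near-identical copies, so their single values are uncertain. The riser was Hist2h2be, at 2.366 to 2.885 TPM with IL-2 and 4.019 to 9.698 TPM without it (log2 difference 1.12, SE 0.292, adjusted P = 0.0114), which did not pass without both moved libraries.

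Genes that build ribosomes fell, while those of the ribosome itself did not as a group. Of 59 ribosome biogenesis genes tested, 40 fell, 15 of them over 3-fold, and 1 rose, with a median of -1.14 (36 fell and 1 rose without both moved libraries). Fbl, which methylates ribosomal RNA, was at 157.7, 184.0 and 199.7 TPM with IL-2 and at 61.23, 50.25 and 52.76 TPM without it (log2 difference -1.70, SE 0.199, adjusted P = 0.000169). Its partner Nop56 was at 108.1, 201.0 and 174.3 TPM and at 49.25, 36.10 and 35.65 TPM (log2 difference -1.94, SE 0.252, adjusted P = 0.000284). Mrto4 fell by 1.98 (SE 0.261, adjusted P = 0.00031), whereas Wdr12 rose by 1.03 (SE 0.293, adjusted P = 0.017). Of 80 cytosolic ribosomal protein genes, 7 rose and 4 fell (median 0.17), with 22 higher and 3 lower after quantile normalization and 0 higher and 2 lower after rescaling of the totals alone. With the replicate number as a block 13 rose and 5 fell. These genes have many processed copies in the genome, so values of single members are uncertain. Their share of the FPKM outside short non-coding RNAs was 18.5 ± 0.529% (SD, n = 3) with IL-2 and 23.2 ± 2.16% (SD, n = 3) without it. Of 78 mitochondrial ribosomal protein genes, 40 fell and 2 rose (median -0.54), and with rescaling of the totals alone 9 fell and 1 rose. Polyamines support growth and translation. Of 13 genes of their metabolism, 7 fell and 2 rose. Srm, spermidine synthase, was at 45.43, 134.3 and 73.53 TPM and at 16.68, 4.514 and 9.256 TPM (log2 difference -2.96, SE 0.45, adjusted P = 0.000694), Eif5a, the translation factor modified by spermidine, fell by 2.03 (SE 0.213, adjusted P = 0.000102), and Sat1, which degrades polyamines, rose by 1.64 (SE 0.295, adjusted P = 0.00171).

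Genes of glycolysis fell. Of 35 genes of glycolysis, the pentose phosphate pathway and the hypoxia response, 21 fell, 12 of them over 3-fold, and 1 rose (median -1.05; 19 fell and 0 rose without both moved libraries, with 1 higher at an unadjusted P under 0.05). Tpi1, triosephosphate isomerase, was at 247.0, 477.6 and 536.2 TPM with IL-2 and at 31.04, 43.54 and 38.91 TPM without it, 10.38-fold lower (log2 difference -3.38, SE 0.358, adjusted P = 0.00011). Pgam1, a later step of the pathway, fell by 2.37 (SE 0.257, adjusted P = 0.00012), and Tkt, transketolase of the pentose phosphate pathway, by 1.65 (SE 0.185, adjusted P = 0.000136). Hk2, the hexokinase of growing cells, was at 7.481, 25.59 and 27.23 TPM and at 1.854, 1.045 and 3.031 TPM (log2 difference -2.69, SE 0.42, adjusted P = 0.000783). TB IL-2 replicate 1 was the lowest library with IL-2 for Tpi1 and Hk2. Of the glucose transporters, Slc2a1 fell by 1.42 (SE 0.303, adjusted P = 0.00408), and Slc2a3 overlapped between the groups (difference 0.67, SE 0.854, adjusted P = 0.564; 0.0461 with the replicate number as a block). Pdk1, which keeps pyruvate out of mitochondria, rose by 1.24 (SE 0.381, adjusted P = 0.024), and not without both moved libraries (adjusted P = 0.0837). The whole list took 1.51 ± 0.317% (SD, n = 3) of the FPKM outside short non-coding RNAs with IL-2 and 0.616 ± 0.147% (SD, n = 3) without it.

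Oxidative phosphorylation fell by less per gene. Of 78 subunits, 47 fell, 2 of them over 3-fold, and 1 rose (median -0.68). Atp5g1, a subunit of the ATP synthase ring, was at 145.9, 162.4 and 164.9 TPM and at 51.03, 41.16 and 42.04 TPM (log2 difference -1.80, SE 0.171, adjusted P = 6.71e-05). Uqcrq of complex III fell by 1.51 (SE 0.144, adjusted P = 6.71e-05) and Cox5a of complex IV by 1.45 (SE 0.169, adjusted P = 0.000169). With rescaling of the totals alone, 20 subunits fell and 1 rose.

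Genes of lipid synthesis fell. Of 36 sterol and fatty acid genes, 26 fell, 12 of them over 3-fold, and 2 rose, with a median of -1.20 (24 fell and 2 rose without both moved libraries). Cyp51, a demethylase of cholesterol synthesis, was at 41.13, 62.43 and 55.74 TPM with IL-2 and at 10.70, 10.06 and 9.637 TPM without it (log2 difference -2.26, SE 0.208, adjusted P = 6.65e-05). Idi1 and Fdps, earlier steps of the same pathway, fell too, Idi1 by 2.92 (SE 0.275, adjusted P = 6.67e-05), and Fdps fell by 2.97 (SE 0.287, adjusted P = 7.55e-05). Fads2, a fatty acid desaturase, was at 12.15, 33.25 and 49.64 TPM and at 0.09624, 0.5578 and 1.160 TPM (log2 difference -4.20, SE 0.508, adjusted P = 0.000203). The fatty acid carrier Fabp5 fell by 3.56 (SE 0.219, adjusted P = 1.35e-05). Acss2, which makes acetyl-CoA from acetate, was at 9.915, 8.513 and 9.988 TPM and at 45.47, 34.83 and 27.96 TPM, a rise of 1.80 (SE 0.255, adjusted P = 0.000475).

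Supply of amino acids and protein folding followed the same direction. Of 39 genes of amino acid supply, one-carbon metabolism and tRNA charging, 27 fell, 12 of them over 3-fold, and 0 rose (median -1.01; 23 fell and 0 rose without both moved libraries). Psat1 and Phgdh, enzymes of serine synthesis, went from 101.7, 117.5 and 117.8 TPM to 8.271, 16.20 and 15.67 TPM and from 149.6, 144.7 and 165.7 TPM to 28.08, 30.69 and 26.84 TPM. Psat1 fell by 3.03 (SE 0.323, adjusted P = 0.000113) and Phgdh by 2.39 (SE 0.255, adjusted P = 0.000114), and Shmt1, which moves the serine carbon into folate, by 2.72 (SE 0.3, adjusted P = 0.000132). Aars fell by 1.73 (SE 0.254, adjusted P = 0.000553) and Pycr1, at 2.34 TPM or less in every TB library, by 1.09 (SE 0.186, adjusted P = 0.00132). Of 33 chaperones, 24 fell, 5 of them over 3-fold, and 0 rose (median -1.0). Sdf2l1, of the endoplasmic reticulum, was at 61.64, 67.43 and 78.32 TPM and at 10.44, 8.367 and 9.606 TPM (log2 difference -2.74, SE 0.178, adjusted P = 1.35e-05), and Creld2, of the same compartment, fell by 1.51 (SE 0.172, adjusted P = 0.000149). Hsp90aa1, the cytosolic HSP90, was at 349.4, 474.0 and 490.9 TPM and at 82.14, 66.03 and 77.03 TPM (log2 difference -2.52, SE 0.208, adjusted P = 3.51e-05). Of 38 proteasome subunits 31 fell, each by less than 3-fold, and 0 rose (median -0.81), among them Psmb6 by 1.09 (SE 0.129, adjusted P = 0.000179) and Psmd1 by 1.33 (SE 0.176, adjusted P = 0.00032). With rescaling of the totals alone, 10 proteasome subunits fell.

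Part of the autophagy and lysosome genes rose, in small steps. Of 38 tested, 19 rose, each by less than 3-fold, and 1 fell (median 0.65; 17 rose and 0 fell without both moved libraries, with 1 lower at an unadjusted P under 0.05). With rescaling of the totals alone 7 rose and 0 fell. Map1lc3b, which encodes the autophagosome protein LC3B, was at 51.02, 45.11 and 54.84 TPM with IL-2 and at 107.9, 132.6 and 130.9 TPM without it (log2 difference 1.28, SE 0.203, adjusted P = 0.00086). The lysosomal hydrolases Neu1 and Ctsa rose by 1.30 (SE 0.214, adjusted P = 0.00103) and 0.73 (SE 0.141, adjusted P = 0.00255), while the protease Ctsz fell by 0.55 (SE 0.156, adjusted P = 0.0171), a call lost without both moved libraries (adjusted P = 0.0539).

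Adhesion genes and lineage factors moved in part. Of 38 integrin, adhesion and glycosylation genes, 15 rose, 6 of them over 3-fold, and 3 fell (median 0.54). Itga4, the alpha chain of VLA-4, was at 15.66, 8.593 and 11.88 TPM and at 95.90, 98.92 and 74.53 TPM, 7.083-fold higher (log2 difference 2.82, SE 0.265, adjusted P = 6.67e-05), and the fucosyltransferase Fut4 fell by 1.33 (SE 0.269, adjusted P = 0.00313). Of 31 helper T lineage factors, 10 rose (32.3%, against 22.3% of all genes) and 2 fell (6.45%, against 17.3%), with a median of 0.46. With rescaling of the totals alone 5 rose and 1 fell. Ikzf3 was at 26.29, 17.63 and 31.35 TPM and at 111.0, 183.2 and 140.2 TPM (log2 difference 2.49, SE 0.298, adjusted P = 0.000192), and Zeb1 rose by 0.63 (SE 0.133, adjusted P = 0.00382). Bcl6, the factor of follicular helper T cells that STAT5 is known to repress, was at 0.8804, 0.7725 and 0.8600 TPM and at 13.44, 7.348 and 4.424 TPM, a rise of 2.24 (SE 0.646, adjusted P = 0.0181). Irf8 fell by 2.38 (SE 0.5, adjusted P = 0.00386), and Eomes, at 6.28 TPM or less, by 0.94 (SE 0.322, adjusted P = 0.0375). The lineage-defining factors Tbx21 (-0.13, adjusted P = 0.843) and Gata3 (0.12, adjusted P = 0.599), with Foxp3 (0.04, adjusted P = 0.926) and Prdm1 (0.46, adjusted P = 0.253), overlapped between the groups.

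**Figure D4:**
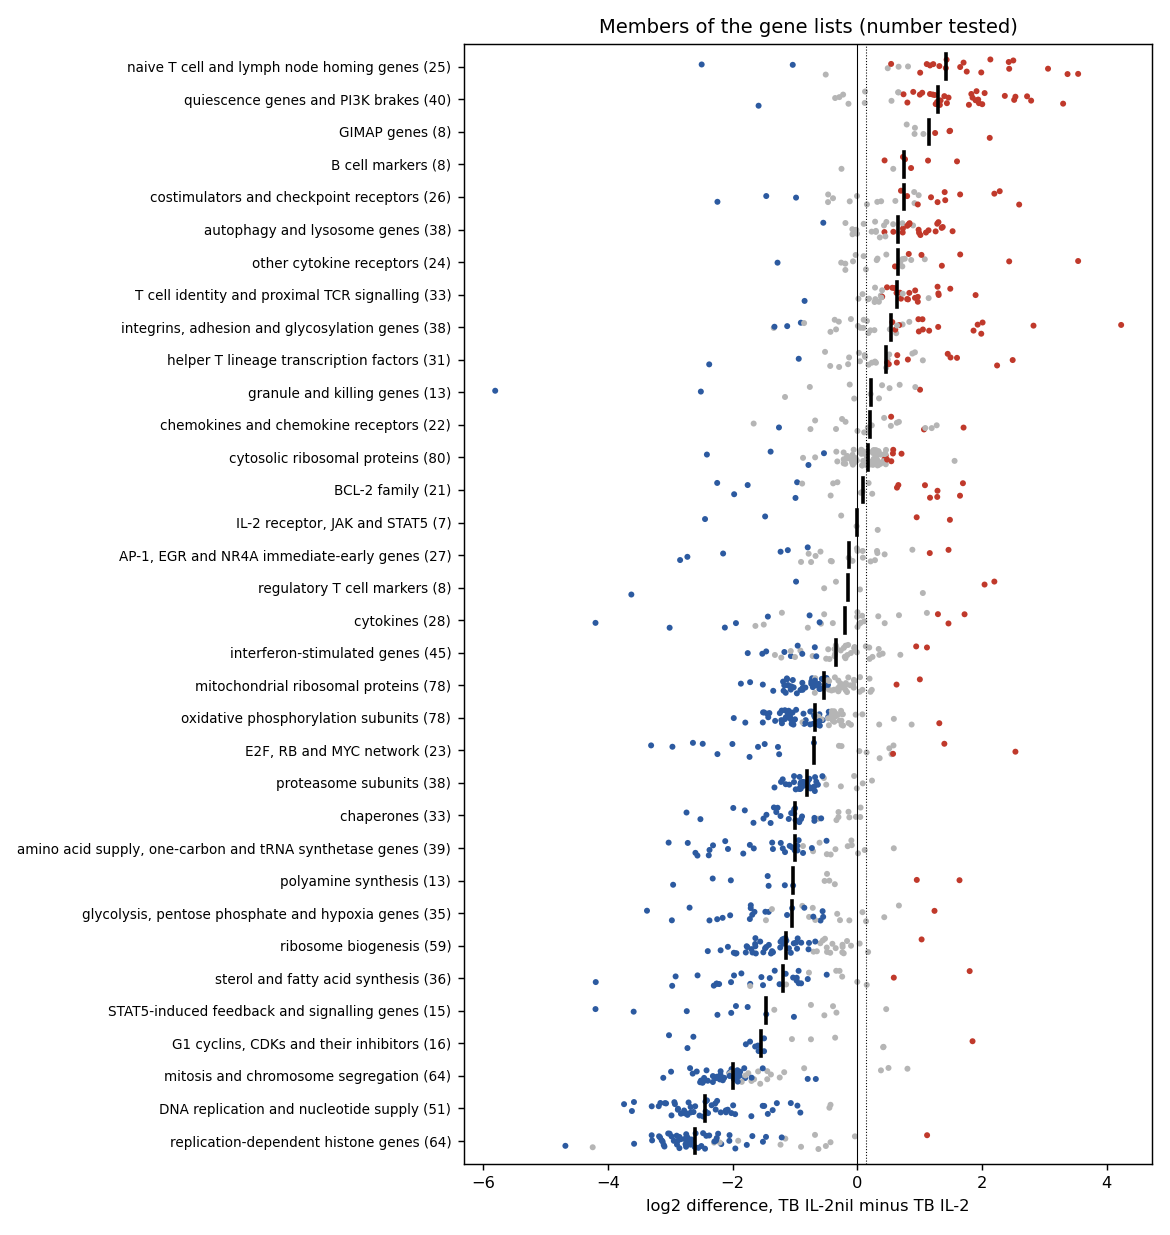
Log2 difference of TB IL-2nil minus TB IL-2 (x axis) for each member of the gene lists, leaving out the markers of CD8, NK, myeloid, erythroid and platelet cells, with the number tested (y axis), with black bars for list medians and a dotted line for the median of all genes (0.13). Red and blue points passed the adjusted P and gray points did not, and the medians of the lists shown run from 1.42 for naive T cell genes to -2.60 for histone genes.

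Genes of T cell identity were expressed in all TB libraries, and part of them rose. Of 33 genes of T cell identity and proximal receptor signaling, 19 rose and 1 fell (median 0.63), with 23 higher and 0 lower after quantile normalization and 9 higher and 0 lower after rescaling of the totals alone. Cd4 was at 145.4, 121.6 and 135.6 TPM with IL-2 and at 305.7, 322.3 and 370.7 TPM without it (log2 difference 1.30, SE 0.183, adjusted P = 0.000451). Cd3d rose by 0.93 (SE 0.144, adjusted P = 0.000776) and Plcg1, a phospholipase of receptor signaling, by 1.49 (SE 0.237, adjusted P = 0.000869). Cd3e, at 354.3 to 391.8 TPM and 410.8 to 479.1 TPM, had a difference of 0.28 that did not pass (adjusted P = 0.16), and Thy1 fell by 0.85 (SE 0.217, adjusted P = 0.0103).

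Markers of other cells were low and partly moved with IL-2. Of 8 B cell markers tested, 6 rose and 0 fell (3 rose with quantile normalization and with rescaling of the totals alone), and the sum of the list was 8.86 to 16.0 TPM in TB IL-2 and 27.2 to 35.3 TPM in TB IL-2nil. Cd79b was at 3.450, 3.485 and 1.872 TPM and at 8.378, 15.14 and 9.482 TPM (log2 difference 1.60, SE 0.314, adjusted P = 0.00271). The CD8 markers Cd8a and Cd8b1 did not pass, and TB IL-2 replicate 1 was the highest TB library for both (13.55 and 18.35 TPM). Of 6 NK cell markers 1 passed the filter on low values, Klrd1, which activated T cells also express, and it rose by 2.17 (SE 0.318, adjusted P = 0.000553). Of 10 myeloid markers 4 were tested and 0 passed (2 higher and 1 lower at an unadjusted P under 0.05). With the replicate number as a block 3 of the 4 were higher, among them Fcgr3 (adjusted P = 0.00491) and Cd68 (adjusted P = 0.0287). The list had a sum of 1.64 to 6.60 TPM and 3.92 to 17.9 TPM. Of 3 erythroid and platelet markers tested 0 passed. The part of such cells in the rises described above was not tested.

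The TB+ libraries share no library with the comparison above, but are not independent of it. They entered the same fit, and libraries of 1 replicate number deviated together across groups (18 correlations of 0.101 to 0.531). The TB+ libraries show how the same genes differed by IL-2 in cells stimulated with PMA/I. The stimulation was short and came after the 16 h of withdrawal, and what was carried over from the resting state was not tested. There, 12.9% of all genes tested were lower and 8.4% higher in TB+ IL-2nil at the adjusted P, and 3.21% and 0.41% were so over 3-fold. Of the 583 genes that fell over 3-fold in resting cells, 412 (70.7%) were lower in TB+ IL-2nil and 1 was higher, and their median was -1.60. Of the 340 that rose, 130 (38.2%) were higher and 0 were lower, with a median of 0.86. Without both moved libraries the 412 became 299 and the 130 became 71. In 519 of the 583 and 322 of the 340 genes the difference had the same sign as in resting cells. Of all 12442 genes tested, 5765 had a negative and 6619 a positive difference in TB+ libraries.

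Replication, mitosis and histone genes were lower without IL-2 under stimulation too. In TB+ libraries, 49 of 51 replication genes, 44 of 64 mitotic genes and 54 of 64 histone genes were lower without IL-2, with medians of -2.44, -2.11 and -2.63, and the interaction given below passed for 2, 0 and 0 of them (6, 1 and 2 at an unadjusted P under 0.05). Without both moved libraries 45, 22 and 36 of them were lower in TB+ IL-2nil, with medians of -2.26, -1.88 and -2.58. Rrm1 was at 115.5, 74.90 and 138.6 TPM in TB+ IL-2 and at 8.388, 8.436 and 10.59 TPM in TB+ IL-2nil. Gzmb was at 400.8, 381.1 and 532.1 TPM and at 33.46, 57.19 and 28.65 TPM (log2 difference -3.48, adjusted P = 0.00205). Il7r was higher by 1.54 (adjusted P = 0.0452), Actn1 by 2.49 (adjusted P = 0.000116) and Bcl2l11 by 1.22 (adjusted P = 0.00381).

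The ribosome biogenesis and STAT5-induced lists were read in the same way in TB+ libraries. Of 59 ribosome biogenesis genes 0 were lower (1 at an unadjusted P under 0.05 in limma) and 1 was higher in TB+ IL-2nil, with a median of 0.37 (0.24 without both moved libraries). Fbl was at 371.7, 346.4 and 353.5 TPM in TB+ IL-2 and at 521.0, 419.7 and 296.5 TPM in TB+ IL-2nil. Of 15 STAT5-induced genes 1 was lower and 2 were higher, with a median of 0.48. Cish was at 363.3, 229.2 and 290.4 TPM and at 659.7, 431.7 and 523.7 TPM (log2 difference 0.87, adjusted P = 0.17), and Socs1 at 111.9, 69.72 and 91.59 TPM and at 568.4, 232.1 and 311.3 TPM, higher by 1.94 (adjusted P = 0.0107). Myc, in resting cells 5.585-fold lower without IL-2, was at 756.6, 697.5 and 574.4 TPM and at 1665, 1465 and 1680 TPM (log2 difference 1.25, adjusted P = 0.088). The difference between the 2 effects was tested as an interaction. It passed for 526 genes, 331 of them with a more negative difference in resting cells (2.66% of genes tested) and 195 with a more positive one (1.57%), and for 30 of the 59 ribosome biogenesis genes. This count rests on the placement and scaling, since it was 4 without both moved libraries, 1 with rescaling of the totals alone and 1478 with the replicate number as a block. Without both moved libraries all 526 genes had the same sign and an unadjusted P under 0.05, as had 2226 genes in all, and of the genes named here Cish alone kept an adjusted P under 0.05 (0.0403). The genes with the smallest adjusted P of the interaction (0.0106) were Fabp5, Srsf2, Mettl1, Ipo5, Utp14b and Hsp90aa1. Hsp90aa1, for example, was at 608.4, 749.8 and 624.1 TPM in TB+ IL-2 and at 628.2, 727.9 and 448.7 TPM in TB+ IL-2nil, groups that overlapped.

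**Figure D5:**
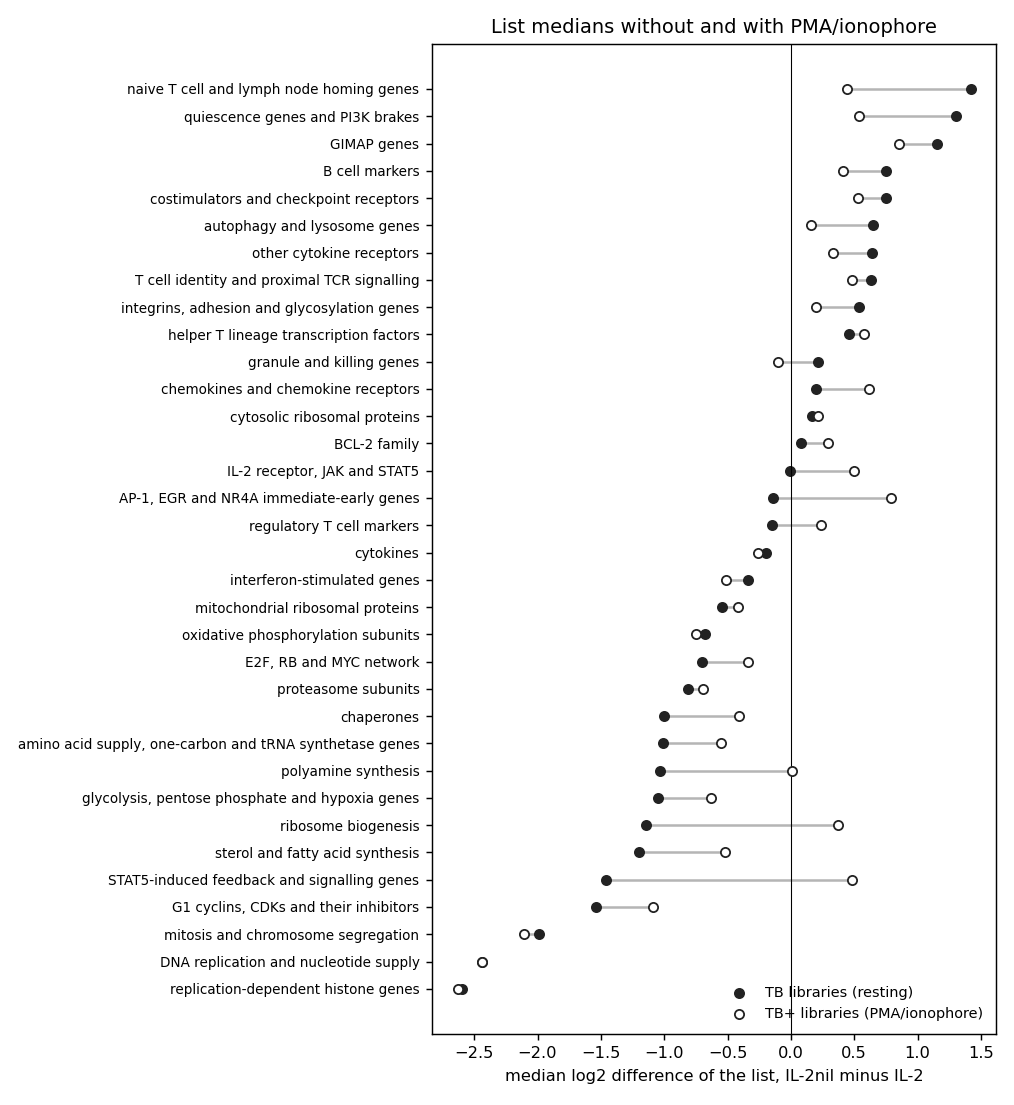
Median log2 difference of IL-2nil minus IL-2 (x axis) of the same gene lists (y axis), with filled points for TB libraries and open points for TB+ libraries. Replication, mitosis and histone genes lie at the same place in both, while ribosome biogenesis genes lie at -1.14 in TB and at 0.37 in TB+ libraries.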

How the data were processed

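RNA-Seq libraries were made from total RNA after depletion of ribosomal RNA with a directional kit, and whether quantification used strand is not given in the sources used here. The authors used Trimmomatic 0.32 for trimming, HISAT2 2.1.0 for alignment to mm9, and quantified RefSeq gene models with StringTie 1.3.3, as their methods and processing notes say. The deposited values are FPKM, per the file headers, 1 file per library. The methods name TPM, which the planned test assumed, but FPKM summed to 193815 to 420487 per library.

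Here each library was rescaled to a total of 1000000 (TPM), the filter on low values asked for more than 1 TPM somewhere among the 12 libraries, and libraries were scaled to a common 75th percentile. The log2(TPM + 1) values (12 libraries, 4 groups) entered a limma 3.58.1 fit (R 4.3.3) without a block, leaving 8 residual degrees of freedom, and P-values were Benjamini-Hochberg adjusted over all 12442 genes. Log2 differences are TB IL-2nil minus TB IL-2 and understate changes of low genes. The contrast of TB+ IL-2nil with TB+ IL-2 and the interaction came from the same fit. The fit was also run on simulated data with independent noise in each library. These lack the shared deviations of replicate numbers given below, so no conclusion on the real libraries is drawn from them. Groups are those of the sample labels except for 2 libraries placed in each other's group. For the match with the study's list the rescaled values were quantile-normalized, unlike in the fit reported. Each of the 12 columns then matched its best library for 99.1% or more of 1381 genes within 0.1%. Any other library matched for at most 1.52%. No 2 libraries were copies of one another. With this placement, libraries of 1 replicate number deviated together (18 correlations of 0.101 to 0.531, against -0.416 to 0.171 for 36 pairs of different numbers; 0.433, 0.101 and 0.336 for the TB pairs). The numbers come from the labels, which do not say what they mark.

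The members, the 38 gene lists and the motifs were chosen with earlier results of these data known. Named genes are the 12 largest rises and falls over 3-fold that do not overlap and pass without both moved libraries, 3 members per list with the lowest adjusted P and the first of the rarer direction, a set of 32 genes of IL-2 biology and 6 genes of the interaction. Jak3, Socs3, Bbc3, Txnip, Mki67, Rrm1, Smc2, Kif15, Aars, Pycr1, Bnip3, Bid, Bik, Bad, Pmaip1, Fcgr3, Cd68 and the genes nearest to 3-fold were chosen after their values were seen. Alternatives were label placement, both libraries left out, 6 libraries, a block, other normalizations, a pseudocount of 0.1, other filters, a limma trend and leaving out each TB library. Coordinates of genes are from GENCODE M1 on mm9 and may differ from the RefSeq models quantified. Promoters are RefSeq windows of GRCm38.p6, and histone genes and Socs2 had no entry. Python 3.11.15, pandas 2.3.3, NumPy 2.4.6 and matplotlib 3.10.9 were used for sequences and plots.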

Additional observations from a re-analysis of the deposited data

Results flagged for a closer look

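A test of the difference between the IL-2 effect in TB libraries and that in TB+ libraries (an interaction term in limma, with Benjamini-Hochberg adjustment) passed for 526 genes at an adjusted P under 0.05. Of the genes named here 41 were among them, with adjusted P from 0.0106 to 0.0438. Without both moved libraries all 41 had the same sign, with unadjusted P from 1.3e-05 to 0.00913 and adjusted P from 0.0403 to 0.144. Values are differences of log2 differences, TB minus TB+, so that a negative value means a larger fall, or a smaller rise, after withdrawal in resting cells.

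Among targets of IL-2 signaling, receptors and cytokines, the interaction was -4.80 for Lif, -4.46 for Cish, -3.96 for Socs1, -3.71 for Spry1, -3.27 for Lrrc32, -2.45 for Socs3, -2.13 for Il2ra and -2.02 for Tnfrsf4. Among survival genes it was -2.29 for Bcl2, -2.17 for Bcl2l1 and 1.04 for Bmf. Among transcription factors and cell cycle genes it was -3.73 for Myc, -3.37 for Cdca7, -3.21 for Irf8, -1.78 for Cdc6, -1.25 for Pcna and -0.90 for E2f3. Among genes of ribosome biogenesis, RNA processing, transport and polyamines it was -3.29 for Srm, -2.45 for Ipo5, -2.37 for Nop56, -2.36 for Utp14b, -2.32 for Mettl1, -2.15 for Srsf2, -2.09 for Mrto4, -1.87 for Fbl and -1.67 for Eif5a. Among metabolic genes and chaperones it was -3.57 for Ppa1, -3.01 for Hk2, -2.80 for Fabp5, -2.57 for Idi1, -2.45 for Shmt1, -2.36 for Hsp90aa1, -2.35 for Cyp51, -2.03 for Pgam1 and -1.18 for Atp5g1. Genes that rose more in resting cells had values of 2.59 for Fam46c, 2.41 for Fbxo32, 2.19 for Tcp11l2, 1.62 for Btg1, 1.44 for Zfp169 and 1.35 for Sesn1.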

How the results depend on the processing

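With both moved libraries taken by their labels, 5 genes were higher and 7 lower over 3-fold, 6 and 9 passed the adjusted P alone, 0 and 3 of the called genes were higher and lower in TB+ libraries, and the interaction passed for 0 genes in limma (18 of the called genes higher and 413 interactions at an unadjusted P under 0.05). Under the same labels Il16 (-0.03) and S1pr1 (-0.25) changed sign, and of 166 named genes 23 kept their direction and their side of the threshold. Without both moved libraries, 71 of the 340 genes were higher and 299 of the 583 lower in TB+ IL-2nil, and the interaction passed for 4 genes. With rescaling of the totals alone, 1430 genes were higher and 1220 lower at the adjusted P, 29 of the 340 were higher in TB+ IL-2nil, and the interaction passed for 1 gene. With a pseudocount of 0.1, 577 genes were higher over 3-fold, and the interaction passed for 241. The filter of over 1 TPM in 3 libraries turned the median of the granule genes from 0.21 to -0.05. The causes were not tested.

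The replicate number as a block left 347 genes higher and 609 lower over 3-fold and raised the interaction to 1478 genes. Among named genes it added Ccnd2, Cd68, Fcgr3, Mki67 and Slc2a3 and changed no other call. Leaving out 1 TB library at a time gave 247 to 468 genes higher and 537 to 624 lower over 3-fold, 1917 to 2703 higher and 1713 to 2042 lower at the adjusted P, 115 to 135 and 401 to 421 of the called genes past it in TB+ libraries, and 85 to 641 genes with an interaction. The interaction passed for 111 genes without TB IL-2 replicate 2, 119 without TB IL-2 replicate 3, 279, 285 and 85 without TB IL-2nil replicates 1, 3 and 2. Named calls lost when 1 library was left out were those of Bcl6, Ctla4, Ctsz, Eomes, Gzmk, Il2rb, Pdk1, S1pr1, Tubb5, Txnip and Wdr12, with adjusted P up to 0.148. Rescaling of the totals alone lost those of Ctsa, Ctsz, Eomes, Gzmk, Klf2, Mcl1, Pdk1, Psmb8, Socs3, Thy1, Tnfrsf18, Tubb5 and Zeb1, quantile normalization those of Psmb8, Thy1 and Tubb5, and it added Cd3e and Foxo1. The median of all genes was 0.13 in the fit reported, 0.08 with quantile normalization and 0.19 with rescaling of the totals alone.

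The fit with the 6 TB libraries alone gives no TB+ value and no interaction. Read counts are not part of the files used here, so low values carry an unknown counting error, and 3 libraries per group limit the precision of every difference.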

Other observations

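Of 45 interferon-stimulated genes tested, 9 fell after withdrawal (20%, against 17.3% of all genes) and 2 rose, with a median of -0.34. With rescaling of the totals alone 3 fell, and with the replicate number as a block 14 did. In TB+ libraries 11 were lower and 1 was higher without IL-2. Isg15, a ubiquitin-like antiviral protein, was at 11.54, 19.57 and 8.343 TPM in TB IL-2 and at 3.743, 1.919 and 3.479 TPM in TB IL-2nil (log2 difference -1.76, SE 0.371, adjusted P = 0.00388). Psmb8, a subunit of the immunoproteasome, went from 435.5, 396.8 and 424.1 TPM to 225.1, 238.0 and 215.9 TPM (log2 difference -0.89, SE 0.193, adjusted P = 0.00463), a call lost with rescaling of the totals alone and with quantile normalization. Ifi203 rose by 1.12 (SE 0.244, adjusted P = 0.00472). The STAT motif was in 11 of 33 promoters of this list (33.3%), against 7.08% of all promoters.

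Of 8 GIMAP genes, GTPases of the lymphocyte endomembranes that lie in 1 cluster, 4 rose without IL-2, 4 did not pass the test and 0 fell (median 1.15), and Gimap6 was at 66.20, 106.5 and 245.1 TPM with IL-2 and at 349.5, 540.5 and 772.2 TPM without it (log2 difference 2.12, SE 0.469, adjusted P = 0.00494). Of 27 AP-1, EGR and NR4A genes and their feedback partners, 6 fell (22.2%, against 17.3% of all genes) and 2 rose (7.41%, against 22.3%), with a median of -0.14. Spry1, which restrains RAS signaling, was at 5.717, 22.30 and 9.606 TPM and at 0.7895, 0.3208 and 0.8943 TPM (log2 difference -2.85, SE 0.393, adjusted P = 0.00041), whereas Dusp2, a MAP kinase phosphatase, rose by 1.16 (SE 0.264, adjusted P = 0.00571). In TB+ libraries Spry1 was at 534.5 to 875.1 TPM with IL-2 and 967.7 to 1642 TPM without it (log2 difference 0.86, adjusted P = 0.142).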
